A study of Mus musculus with 4 samples.

Results

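The core spliceosome genes were described here as 39 genes that encode proteins of the U1, U2, U5 and U4/U6 small nuclear ribonucleoproteins (snRNPs), the factors that bind the branch point and the 3′ splice site, and the Prp19 complex. The members were found by gene symbol, by a rule that uses no measured value, although the set was proposed with earlier results of these data known, and all 39 were found among the 55401 genes of the count table. RNA was sequenced from splenic follicular B (FOB) cells of C57BL/6 mice aged 7 weeks, sorted as B220+CD93-CD23highCD21low cells, with 2 libraries from WT mice and 2 from Hnrnpf KO mice. The Hnrnpf KO mice were Hnrnpf fl/fl with a Cre allele that is active in B-lineage cells and removes exon 4 of Hnrnpf there. In the study the WT mice carried the floxed Hnrnpf alleles without Cre, whereas the sample labels say only WT. The deletion and the presence of the Cre allele therefore cannot be told apart. Hnrnpf encodes hnRNP F, an RNA-binding protein that recognises G-rich sequences in pre-mRNA and takes part in splice site choice.

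The spliceosome removes introns from pre-mRNA. The U1 snRNP pairs with the 5′ splice site, SF1 and the U2AF heterodimer mark the branch point and the 3′ splice site, and the U2 snRNP then replaces SF1 at the branch point. The U4/U6.U5 tri-snRNP joins next, and the Prp19 complex takes part in the activation of the assembled machine. A ring of Sm proteins is shared by U1, U2, U4 and U5. Several genes of splicing factors hold alternative exons or introns whose inclusion gives transcripts that are degraded or not translated, so that level and splicing of such a gene are often looked at together.

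Hnrnpf itself had 5780 and 6634 counts in WT libraries 1 and 2 and 1167 and 1194 in Hnrnpf KO libraries 1 and 2. It fell by 2.32 on the log2 scale (SE 0.06, adjusted p = 1.05e-10, edgeR quasi-likelihood test), or by 79.9%, in counts over the whole gene, which do not separate exon 4 from the rest. The libraries held 15698567 to 18908963 counts in genes, and normalisation factors lay between 0.992 and 1.01. The summed level of 4 follicular B cell genes was 6114 and 6169 CPM (counts per 1000000 counts in genes of the library) in WT against 6912 and 6863 in Hnrnpf KO, and that of 9 T cell genes was at most 56.4 CPM in any library. Of the 4 follicular genes, 3 were called higher and 1 lower in Hnrnpf KO (edgeR). The 6 general B cell genes summed to 10270 and 10400 CPM in WT against 9225 and 9239 in Hnrnpf KO, with 3 of 6 called lower. Summed levels were also lower in both Hnrnpf KO libraries than in both WT libraries for further lists. These were marginal zone (5 genes), plasma cell (5), germinal center (5) and Myc and immediate early (10). Not all genes followed their sum. The log2 fold change was above 0 for 3 of 5 marginal zone, 3 of 5 plasma cell, 0 of 5 germinal center and 3 of 10 Myc and immediate early genes. In the marginal zone list 1 gene was called higher and 2 lower, in the Myc and immediate early list 1 and 3 (edgeR). No plasma cell or germinal center gene was called. The 6 neutrophil genes summed to 11.4 and 14.4 CPM in WT against 25.9 and 47.6 CPM in Hnrnpf KO, and none of them was at 0 in every library. Of these genes 5 passed the filter on low counts, with a median log2 fold change of 1.48. Among the 5, 4 were called higher and 0 lower in Hnrnpf KO (edgeR). The part of these lists in the results for the core spliceosome genes was not tested. In sorted cells measured in bulk, fewer cells of a type and less RNA per cell cannot be told apart.

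Of the 39 core spliceosome genes, 37 did not pass the test between Hnrnpf KO and WT FOB cells, and Snrnp70 and Luc7l2 rose. Both encode proteins of, or bound to, the U1 snRNP, and both changes were below 1.3-fold. The 39 genes together took 7316 and 7418 CPM in WT against 7684 and 7579 CPM in Hnrnpf KO, so that both Hnrnpf KO libraries were above both WT libraries. Without Snrnp70 alone, the other 38 genes summed to 6585 and 6668 CPM in WT against 6776 and 6678 CPM in Hnrnpf KO, without overlap. Without Snrnp70 and Luc7l2 the remaining 37 genes summed to 6250 and 6277 CPM in WT against 6312 and 6266 CPM in Hnrnpf KO. For these 37 the groups overlapped. The 2 genes were taken out because they were called in these same data, so the smaller difference is no separate evidence on the rest.

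The sequences that bear on these genes are exons which a transcript may include or leave out, since Luc7l2 was among the members with rows in the deposited splicing table and since Snrnp70 and the Luc7l genes carry exons found in no coding transcript of the annotation (GENCODE M21, GRCm38). The first pair shows that Luc7l2 and its paralogue Luc7l hold an exon of the same length, 71 bases, with 60 bases identical. Capitals mark the 11 bases at which they differ. The Luc7l2 exon (chr6:38568847-38568917, plus strand) lies in 4 annotated transcripts, none of them coding and 3 annotated to nonsense-mediated decay, and the Luc7l exon (chr17:26253974-26254044, plus strand) lies in 1 transcript, annotated to nonsense-mediated decay.
Luc7l2 71-base exon: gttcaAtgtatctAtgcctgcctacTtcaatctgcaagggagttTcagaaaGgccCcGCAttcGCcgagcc
Luc7l 71-base exon: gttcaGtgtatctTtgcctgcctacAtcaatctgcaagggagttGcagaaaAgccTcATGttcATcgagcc

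The next pair gives 2 further cassette exons of Luc7l2, 1 found in no coding transcript and 1 found in coding transcripts, in lower case throughout. The fourth cassette exon of the gene, of 84 bases (chr6:38554980-38555063, plus strand), lies in 3 transcripts, 2 of them coding, and is not printed. The 47-base exon (chr6:38571042-38571088, plus strand) lies in 1 transcript, annotated to nonsense-mediated decay, and its length is not a multiple of 3. The 30-base exon (chr6:38598785-38598814, plus strand) lies in 3 transcripts, 2 of them coding, and its length keeps the reading frame.
Luc7l2 47-base exon: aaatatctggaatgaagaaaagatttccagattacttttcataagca
Luc7l2 30-base exon: gtcccgatcacatagcaagaatcccaaaag

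In Snrnp70 a 60-base exon (chr7:45383125-45383184, minus strand) lies in 1 transcript, annotated to nonsense-mediated decay, and holds a stop codon in that transcript's frame. Its first 26 bases (chr7:45383159-45383184, minus strand) are shown up to this stop codon, which is in capitals. The same 26 bases also begin a 1360-base exon (chr7:45381825-45383184, minus strand), which lies in 1 transcript. That transcript is neither coding nor annotated to nonsense-mediated decay.
Snrnp70 exon to its stop codon: ccaccacgcagctggcttgcagcTGA

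The deposited splicing table gives no exon position, so whether any of these exons is the one listed there cannot be told apart from other exons of the same gene.

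All 39 genes passed the filter on low counts, and the lowest mean count of a member was 182 (median 1347, against 378 for the 14123 genes tested). At an adjusted p of at most 0.05 (edgeR), 2 of 39 were higher in Hnrnpf KO (5.13%), beside 4.15% of all genes tested, and 0 of 39 were lower, beside 2.83% of all genes tested. No member was called at 2-fold or more, the study's threshold for altered expression, beside 0.899% of all genes tested in either direction. DESeq2 and limma also called 0 members lower and 0 at 2-fold. By unadjusted p under 0.05, 6 members were higher (Snrnp70, Luc7l2, Prpf3, Luc7l, Luc7l3 and Snrpf), which is 15.4% beside 11.0% of all genes, and 1 was lower (Prpf39), which is 2.56% beside 9.30%. These shares rest on few genes, and the share called was close to that of all genes.

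The median log2 fold change of the 39 genes was 0.01, against -0.002 for all genes tested, with a range from -0.12 for Prpf39 to 0.30 for Snrnp70. Both Hnrnpf KO libraries were above both WT libraries in CPM for 13 members, 33.3% beside 23.5% of all genes tested, and below them for 7 members, 17.9% beside 26.9%. The 2 groups overlapped for the other 19 members. In 27 of 39 members the log2 fold change was under 0.1 in size, and in 33 of 39 the 95% interval of the fold change lay within 0.8 and 1.3. The SE of a member's log2 fold change was 0.07 at the median and 0.17 at most, for Snrpg, so that changes of the size seen for Snrnp70 would not stand out for the members with the lowest counts. The plot of fold changes by role shows the intervals of the 2 genes that passed the test clear of 1, while those of Prpf3, Luc7l, Luc7l3, Snrpf and Prpf39 also exclude 1 without passing the test over all genes.

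**Figure D1:**
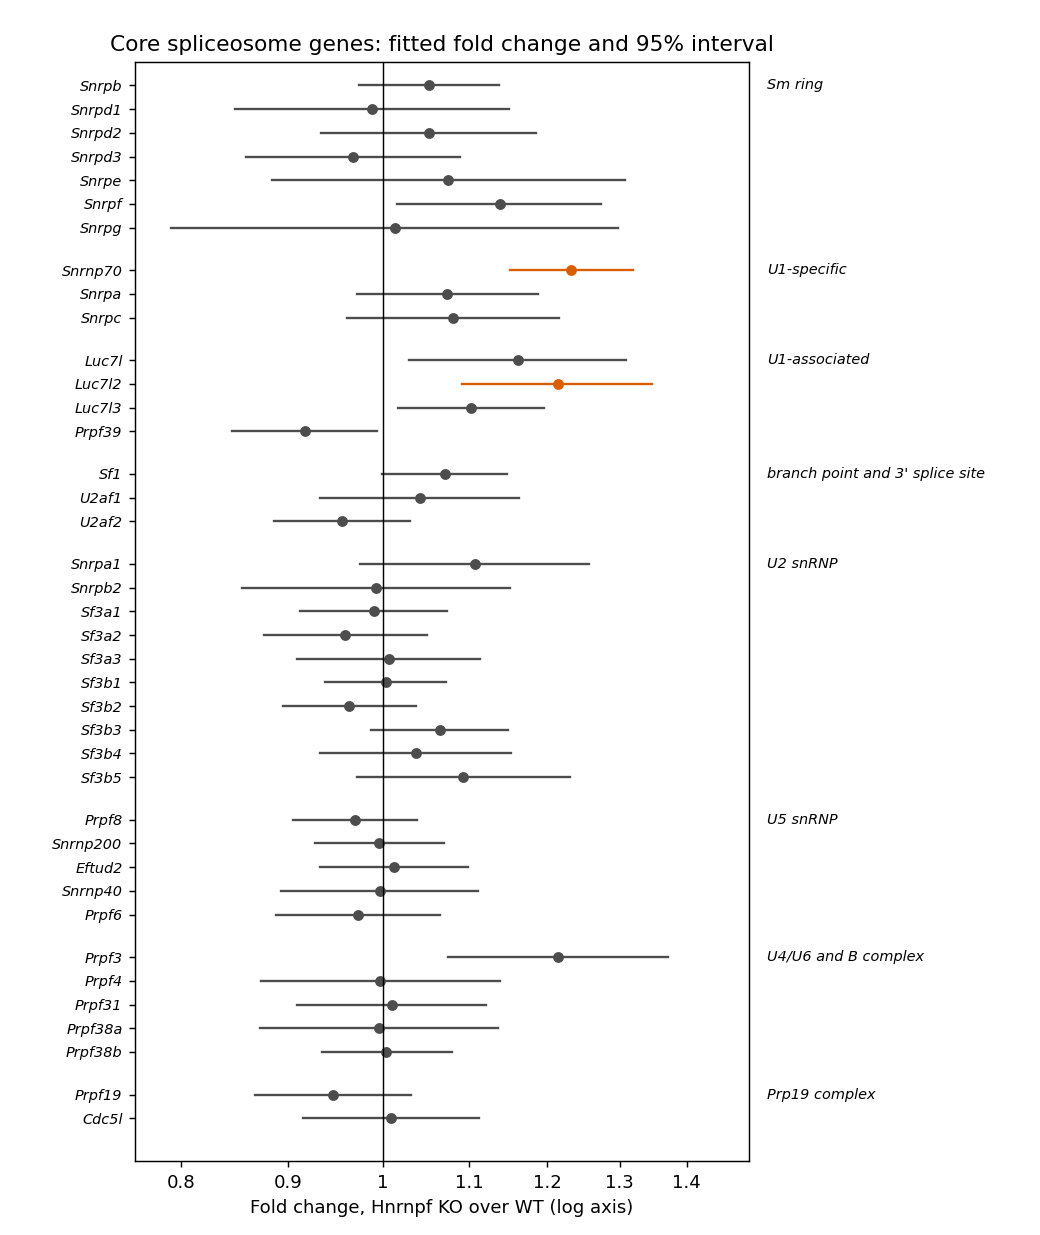
Fitted fold change (Hnrnpf KO over WT, log axis, points) with its 95% interval (lines) for the 39 core spliceosome genes, ordered by role, with 2 libraries per group; orange marks an adjusted p of at most 0.05 (edgeR quasi-likelihood test). Snrnp70 and Luc7l2 are the orange genes, at 1.23-fold and 1.21-fold, and 33 of 39 intervals lie within 0.8 and 1.3.

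Among the proteins that belong to U1 alone, Snrnp70 (U1-70K, which binds the first stem-loop of U1 RNA) changed most. The gene (chr7:45376453-45395742, minus strand, GRCm38, ENSMUSG00000063511) had 11959 and 14167 counts in WT against 14265 and 16282 in Hnrnpf KO. In CPM these were 731 and 749 in WT against 909 and 901 in Hnrnpf KO, with group means of 740 ± 12.9 and 905 ± 5.56 CPM (SD, n = 2 each). Both Hnrnpf KO libraries were above both WT libraries, and the gap between the groups was larger than the spread within either. The fold change was 1.23 (95% interval 1.15 to 1.32, log2 0.30, SE 0.05, adjusted p = 0.00162, edgeR). Snrnp70 shared none of its exonic bases with another annotated gene, and had more annotated transcripts than any other member, 17, of which 9 are annotated as retained intron and 2 to nonsense-mediated decay. Its counts cover the whole gene, and the share of each transcript was not measured. It was called in 11 of 13 alternative settings and in all 4 that leave out a library, with adjusted p of 0.0697 and 0.0688 in the 2 limma settings on FPKM.

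The other U1-specific proteins did not pass the test. Snrpa (U1-A, which binds the second stem-loop of U1 RNA) had 70.7 and 71.8 CPM in WT against 78.5 and 73.5 in Hnrnpf KO, with a log2 fold change of 0.10 (SE 0.07, adjusted p = 0.43, edgeR). Snrpc (U1-C, which helps U1 bind the 5′ splice site) had 41.6 and 40.8 CPM in WT against 44.5 and 43.9 in Hnrnpf KO, with a log2 fold change of 0.11 (SE 0.08, adjusted p = 0.47, edgeR). For both, the Hnrnpf KO libraries lay above the WT libraries, by amounts that the test over all genes did not separate from 0.

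The U1-associated proteins comprised Luc7l, Luc7l2 and Luc7l3, the mammalian relatives of yeast Luc7, which influence 5′ splice site choice, and Prpf39, which joins U1 to other early factors. Luc7l2 (chr6:38551334-38609470, plus strand, GRCm38, ENSMUSG00000029823) had 5488 and 7397 counts in WT against 7273 and 7449 in Hnrnpf KO. In CPM these were 335 and 391 in WT against 463 and 412 in Hnrnpf KO, with means of 363 ± 39.4 and 438 ± 36.2 CPM (SD, n = 2 each). The lower Hnrnpf KO library exceeded the higher WT library by less than either group's own spread. The fold change was 1.21 (95% interval 1.09 to 1.35, log2 0.28, SE 0.07, adjusted p = 0.0302, edgeR). The call was lost without WT replicate 1 (log2 0.18, adjusted p = 0.138), without Hnrnpf KO replicate 1 (log2 0.20, adjusted p = 0.186) and with the replicate number as a block (log2 0.28, adjusted p = 0.0814), in each case with edgeR. Luc7l2 was called in 8 of 13 alternative settings. The 2 limma settings on FPKM also lost the call, with adjusted p of 0.269 and 0.268. Of the exonic bases of Luc7l2, 18.9% are also exonic in Gm26699 on the other strand, and a strand setting for the counting is not given in the sources used here.

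Luc7l and Luc7l3 did not pass the test. Luc7l had 138 and 122 CPM in WT against 137 and 161 in Hnrnpf KO, so that the groups overlapped, with a log2 fold change of 0.21 (SE 0.08, adjusted p = 0.144, edgeR). This value moved with single libraries, from 0.09 to 0.33 on the log2 scale, and Luc7l was called without WT replicate 1 (adjusted p = 0.0263) and without Hnrnpf KO replicate 1 (adjusted p = 0.0206), with edgeR. Luc7l3 had 198 and 213 CPM in WT against 229 and 221 in Hnrnpf KO, without overlap, with a log2 fold change of 0.14 (SE 0.05, adjusted p = 0.155, edgeR). Prpf39 lay in the opposite direction, at 165 and 159 CPM in WT against 148 and 146 in Hnrnpf KO, with a log2 fold change of -0.12 (SE 0.05, adjusted p = 0.205, edgeR). In the plot of CPM by library the replicates of Snrnp70 and Prpf39 sit close together, and those of Luc7l2 and Luc7l lie apart.

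**Figure D2:**
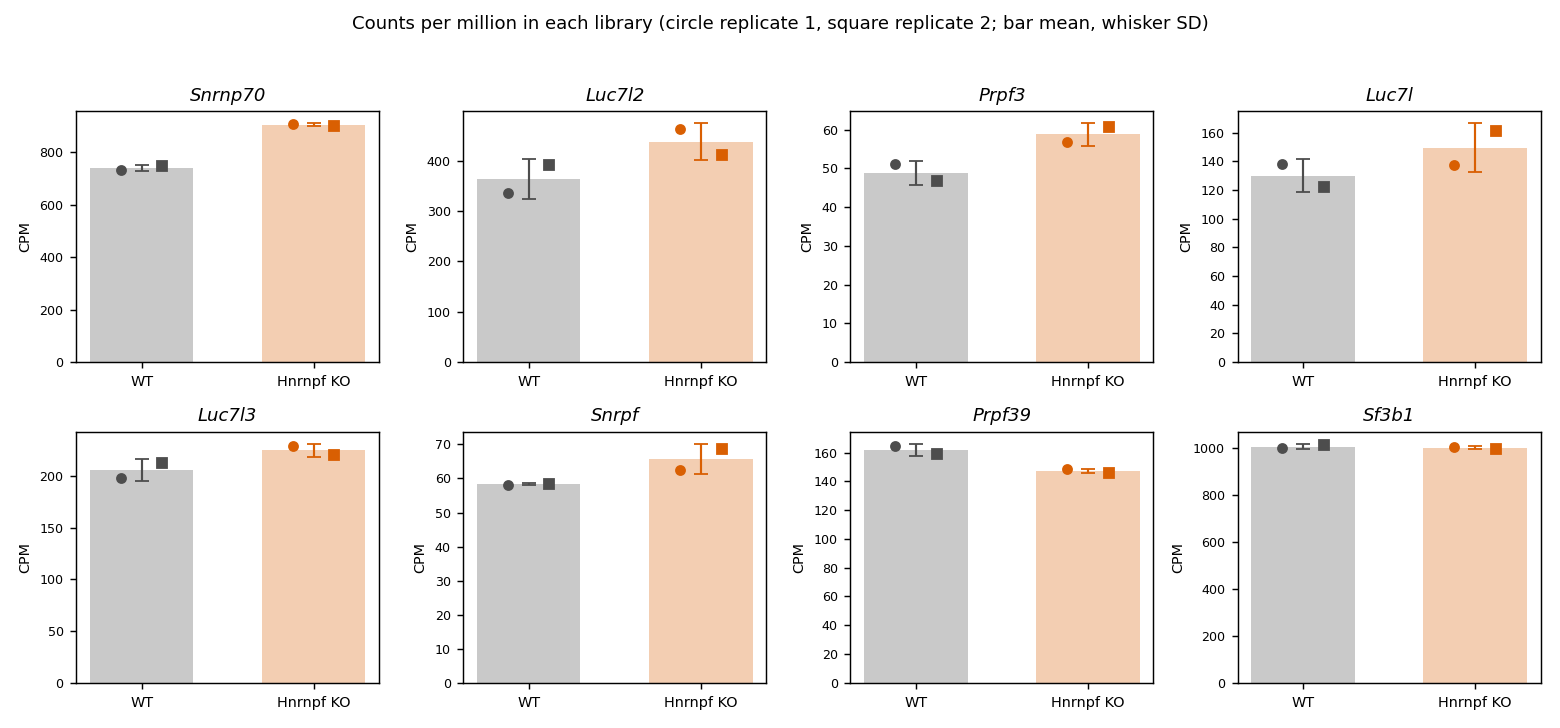
CPM (linear axes from 0) of 8 core spliceosome genes in the 2 WT (grey) and 2 Hnrnpf KO (orange) libraries, with points for single libraries, bars for the group mean and whiskers for the SD. Snrnp70 rises from 731 and 749 to 909 and 901 CPM, Luc7l overlaps between the groups, Prpf39 lies lower in Hnrnpf KO without passing the test, and Sf3b1 stays near 1000 CPM in all 4 libraries.

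The 7 U1-specific and U1-associated genes together summed to 1679 and 1747 CPM in WT against 2010 and 1958 CPM in Hnrnpf KO, a difference of means of 15.8%. The other 32 members summed to 5637 and 5671 CPM in WT against 5675 and 5621 CPM in Hnrnpf KO, a difference of -0.104%, with overlapping groups. Within the 32, sums of single roles also lay apart between the groups, in both directions. The Sm ring (4.01%) and the branch point and 3′ splice site factors (1.69%) were higher in Hnrnpf KO. U5 (-2.54%) and the Prp19 complex (-3.77%) were lower. The groups overlapped for U2 and for U4/U6 and B complex. The median log2 fold change was 0.14 over the 7 and 0.008 over the 32. The roles were assigned from the known biology of each protein, but the 2 U1 roles were joined after their values were seen, so this contrast is a description and carries no test. Both called members are among the 7 and gave most of the difference. The mean of the 7 went from 1713 to 1984 CPM, that of Snrnp70 from 740 to 905 and that of Luc7l2 from 363 to 438. Of the 7 genes, 6 had a log2 fold change above 0 and 1 below, and 2 were called.

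The Sm ring proteins, which coat the U snRNAs and are needed for their return to the nucleus, did not change beyond the test. Their 7 genes had log2 fold changes from -0.05 (Snrpd3) to 0.19 (Snrpf), with a median of 0.07, and 0 of 7 were called. Snrpb, the most abundant of them by FPKM, had 157 and 158 CPM in WT against 166 and 163 in Hnrnpf KO. Snrpd2 had log2 0.07, Snrpd1 -0.02, Snrpe 0.10 and Snrpg 0.02, all with overlapping groups. Snrpf had 58.1 and 58.4 CPM in WT against 62.6 and 68.8 in Hnrnpf KO (log2 0.19, SE 0.08, adjusted p = 0.176, edgeR), and 85.4% of its exonic bases are also exonic in 4933408J17Rik or Ccdc38 on the other strand.

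Several small snRNP genes have copies elsewhere in the genome, and in 18 of 39 members at least 1 other gene matched at 90% identity or more over at least 200 bases. For 3 of these members a copy held at least 10% of the member's own counts. Gm8186, identical to Snrpg over 231 bases, had 836 and 971 counts in WT against 846 and 920 in Hnrnpf KO, beside 193 and 177, and 153 and 206, for Snrpg itself. Snrpg and Gm8186 together gave 62.9 and 60.7 CPM in WT against 63.6 and 62.3 in Hnrnpf KO, with overlapping groups, and the level of Snrpg by itself is uncertain. Snrpert, 99.6% identical to Snrpe over 225 bases, had 147 and 170 counts in WT against 175 and 235 in Hnrnpf KO (log2 0.44, SE 0.15, adjusted p = 0.108, edgeR). Snrpe and Snrpert together gave 27.0 and 23.6 CPM in WT against 27.9 and 30.9 in Hnrnpf KO, so that the groups overlapped for Snrpe by itself and did not for the sum, which was not tested. U2af1 and Gm10232 together overlapped between the groups, at 69.6 and 69.0 CPM in WT against 74.6 and 68.8 in Hnrnpf KO. Gm10232, 99.7% identical to U2af1 over 720 bases, had 179 and 180 counts in WT against 174 and 184 in Hnrnpf KO.

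The factors that mark the branch point and the 3′ splice site are SF1, which binds the branch point sequence, and U2AF, whose large subunit (U2af2) binds the polypyrimidine tract and whose small subunit (U2af1) reads the AG of the 3′ splice site. None of the 3 genes was called. Sf1 had 567 and 561 CPM in WT against 598 and 601 in Hnrnpf KO, a gap wider than the spread of either group, with a log2 fold change of 0.10 (SE 0.05, adjusted p = 0.253, edgeR). U2af2 had 382 and 396 CPM in WT against 361 and 377 in Hnrnpf KO, with a log2 fold change of -0.07 (SE 0.05, adjusted p = 0.52, edgeR). U2af1 had 58.6 and 59.5 CPM in WT against 63.5 and 58.7 in Hnrnpf KO, with overlapping groups.

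The U2 snRNP proteins, which recognise the branch point, had a median log2 fold change of 0.007 over 10 genes, and 0 of 10 were called. Sf3b1, the scaffold of the SF3b complex that clamps the branch point helix, had 1000 and 1014 CPM in WT against 1007 and 996.9 in Hnrnpf KO. Its fold change had an interval from 0.938 to 1.07. The other SF3b genes had log2 fold changes of -0.05 (Sf3b2), 0.09 (Sf3b3), 0.05 (Sf3b4) and 0.13 (Sf3b5). The SF3a genes had -0.01 (Sf3a1), -0.06 (Sf3a2) and 0.009 (Sf3a3). Snrpa1 and Snrpb2, the U2-A′ and U2-B″ proteins that bind a stem-loop of U2 RNA as a pair, had 0.15 and -0.01. Snrpa1 lay at 31.6 and 33.7 CPM in WT against 35.7 and 36.1 in Hnrnpf KO, without overlap (SE 0.08, adjusted p = 0.364, edgeR).

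The U5 snRNP genes gave the narrowest range of the 8 roles, from -0.04 to 0.02 on the log2 scale over 5 genes. Prpf8, which forms the cavity of the catalytic centre, had 718 and 712 CPM in WT against 687 and 688 in Hnrnpf KO (log2 -0.04, SE 0.05, adjusted p = 0.639, edgeR). Snrnp200, the helicase that unwinds U4/U6, had log2 -0.006, the GTPase gene Eftud2 0.02, Snrnp40 -0.005 and Prpf6, a bridge of the tri-snRNP, -0.04. The intervals of the fold change ended between 0.889 and 1.11 for these 5 genes.

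Among the U4/U6 and B complex genes, Prpf3, which binds U4/U6 together with Prpf4, had the largest value. Prpf3 (chr3:95830124-95855885, minus strand, GRCm38, ENSMUSG00000015748) had 836 and 882 counts in WT against 891 and 1099 in Hnrnpf KO, or 51.1 and 46.6, and 56.8 and 60.8 CPM. The groups did not overlap, and the log2 fold change was 0.28 (SE 0.08), close to that of Luc7l2, with an adjusted p of 0.0585 (edgeR), just above the threshold. It was called in 3 of 13 alternatives, with adjusted p from 0.0202 to 0.287 over all of them. Its partner Prpf4 had 51.2 and 43.8 CPM in WT against 47.5 and 46.4 in Hnrnpf KO, a log2 fold change of -0.004. Prpf31, which holds the U4 and U5 particles together, had 0.01, and the B complex proteins Prpf38a and Prpf38b had -0.007 and 0.006. In the Prp19 complex, the ubiquitin ligase gene Prpf19 had -0.08 and its partner Cdc5l 0.01, with 0 of 2 called.

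By level per length, the 39 genes spanned 19.2-fold, from a mean of 5.62 FPKM (fragments per kilobase of exon, scaled to the library total) for Prpf38a to 108 FPKM for Snrnp70 over the 4 libraries. The median was 23.1 FPKM, against 6.03 for all genes tested. The highest by this mean were Snrnp70, with 95.95 and 98.35 FPKM in WT against 119 and 118 in Hnrnpf KO, Prpf8, with 96.2 and 95.4 in WT against 92.1 and 92.2 in Hnrnpf KO, and Sf1, with 91.3 and 90.3 in WT against 96.3 and 96.8 in Hnrnpf KO. In WT the FPKM of Snrnp70 overlapped that of Prpf8, and in Hnrnpf KO it lay above it. The order below Snrnp70 differed between the groups: U2af2, the next by mean, had 92.97 and 96.35 FPKM in WT, above Sf1, whereas in Hnrnpf KO Sf1 lay above both Prpf8 and U2af2. The lowest were Prpf38a (5.65 and 5.66 in WT, 5.49 and 5.67 in Hnrnpf KO; log2 fold change -0.007, SE 0.09, adjusted p = 0.978, edgeR), Snrpc (6.38 and 6.26, then 6.83 and 6.73) and Snrpg (7.51 and 5.96, then 6.21 and 7.26). The place of Snrpg is uncertain. Its copy Gm8186, identical over 231 bases, held 3573 counts over all libraries against 729 for Snrpg. Of the 38 neighbouring pairs in this order, 30 overlapped in their libraries and 8 did not, among them Sf3b1 above Snrpb and Snrpf above Snrnp200. FPKM was computed over the union of annotated exons, which is 6521 bases for Snrpc and 861 for Snrpf, so part of the order follows from the annotated length. Across the 39 genes the log2 fold change and the log2 of the mean FPKM had a Pearson r of 0.07, as a description over genes of the same 4 libraries.

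**Figure D3:**
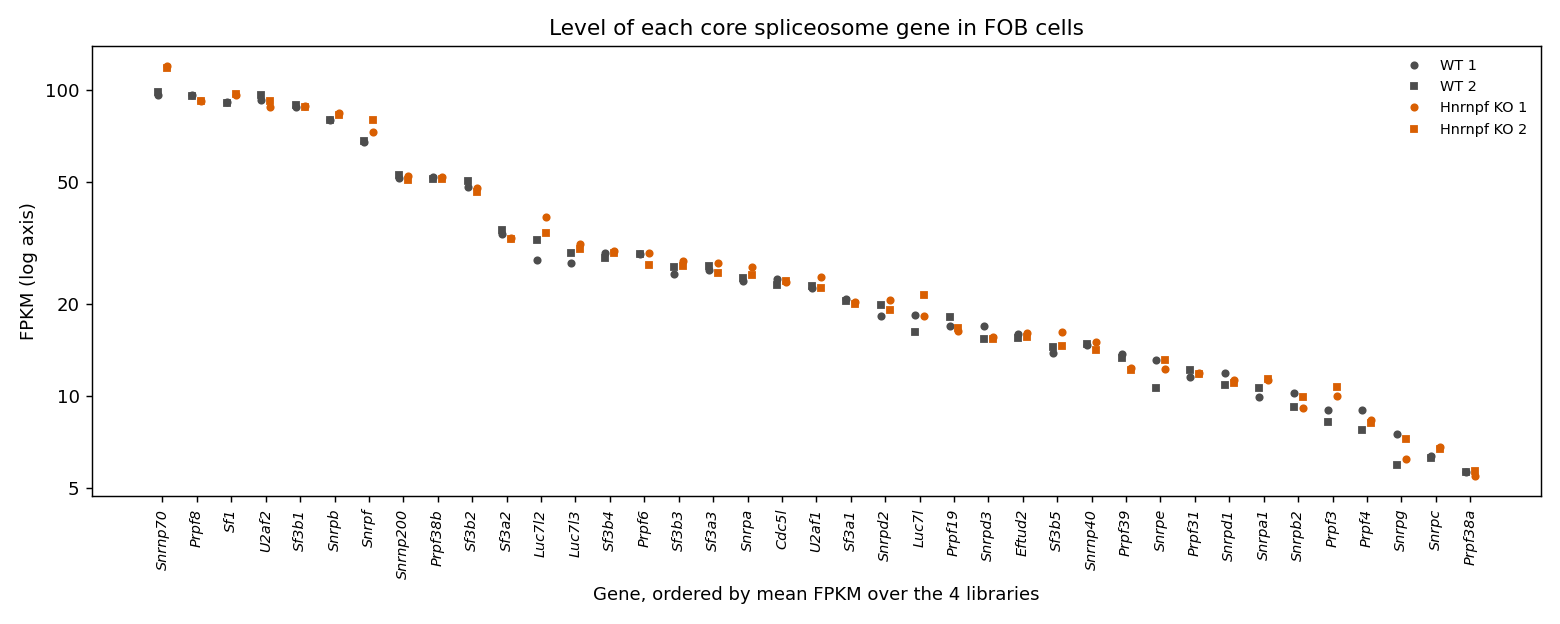
FPKM (log axis) of the 39 core spliceosome genes in each of 2 WT (grey) and 2 Hnrnpf KO (orange) libraries, ordered from left to right by the mean over the 4 libraries. The levels run from 108 FPKM for Snrnp70 to 5.62 for Prpf38a, and most neighbours overlap.

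In the authors' deposited table of alternative splicing events, made with rMATS, 2 of 39 members have rows, 5.13% beside 10.6% of the 9875 tested genes whose mean count was 100 or more, as it was for all 39 members. Luc7l2 has 2 rows and Prpf39 1 row, all of the type skipped exon. No member is listed with a retained intron, an alternative 5′ or 3′ splice site or mutually exclusive exons. The size and direction of these events come from the authors' own comparison and were not used here. In the annotation, 18 of 39 members have a cassette exon, 11 have one that lies in no coding transcript, 17 have a transcript annotated to nonsense-mediated decay and 32 one annotated as retained intron. Luc7l2 has 4 annotated cassette exons and Prpf39 has 4, of which 2 and 3 lie in no coding transcript. Snrnp70, whose counts rose, has no row in the splicing table.

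The rest of the pathway was read from 9 lists of 94 further spliceosome genes, of which 93 passed the filter on low counts. Of these, 5 were higher and 2 lower in Hnrnpf KO at an adjusted p of at most 0.05 (edgeR), beside the 4.15% and 2.83% of all genes tested. Their median log2 fold change was 0.007. In the U1 and early complex list, Prpf40b, a relative of the yeast U1 protein Prp40, rose from 22.1 and 20.8 CPM to 29.6 and 27.1 CPM (log2 0.41, SE 0.10, adjusted p = 0.0245, edgeR). Tia1, which helps recruit U1 to weak 5′ splice sites, fell by 0.23 on the log2 scale (adjusted p = 0.027, edgeR).

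Outside U1, Ddx39b (UAP56, a helicase that acts with U2AF and in mRNA export) rose from 565 and 584 CPM to 655 and 651 CPM (log2 0.20, SE 0.05, adjusted p = 0.0228, edgeR). Among 15 genes of snRNP assembly and import, Gemin2, a subunit of the SMN complex that loads the Sm ring, rose from 190 and 201 counts to 248 and 272 counts (log2 0.48, SE 0.13, adjusted p = 0.0434, edgeR), and Wdr77, a subunit of the methylosome that modifies Sm proteins, rose by 0.27 on the log2 scale (adjusted p = 0.0449, edgeR). Snrnp48, a protein of the U11/U12 particle of the minor spliceosome, fell from 2246 and 2458 counts to 1731 and 2029 counts (log2 -0.25, SE 0.06, adjusted p = 0.0192, edgeR). No gene was called in the Lsm ring of U6 (7 genes), the other tri-snRNP and B complex factors (15), the other Prp19 complex factors (14), the catalytic step and release factors (11) or the exon junction complex core (5). These calls depended on the tool: DESeq2 called 1 higher and 1 lower, the replicate block and limma called 0 and 0, and leaving out Hnrnpf KO replicate 1 left 0 and 0.

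**Figure D4:**
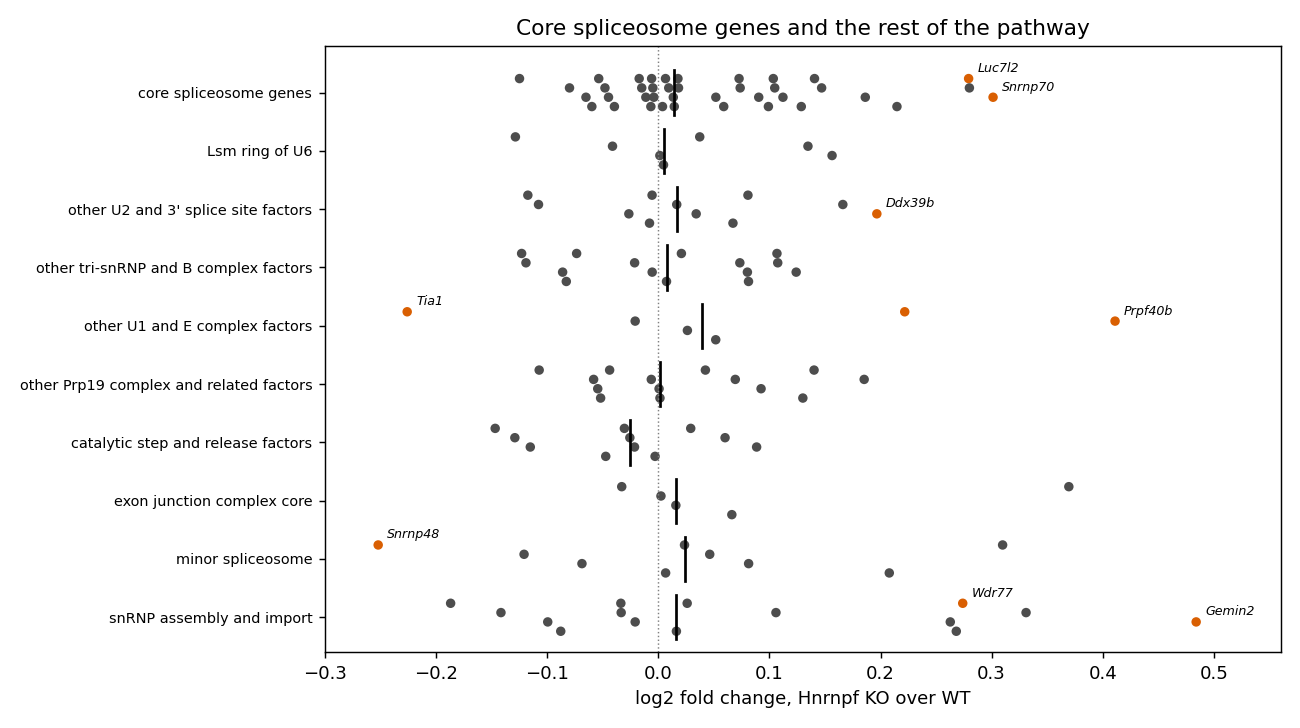
log2 fold change (Hnrnpf KO over WT) of each gene of the core set and of 9 lists of further spliceosome genes; points are genes, vertical lines the median of a list, and orange marks an adjusted p of at most 0.05 (edgeR, 2 libraries per group). The medians lie between -0.03 and 0.04, and 9 genes are orange, 7 to the right of 0 and 2 to the left, with 8 of them named.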

How the data were processed

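FOB cells were sorted from spleens, and poly(A) mRNA was made into libraries with a NEBNext Ultra kit and sequenced in paired ends. Per the labels and the study's methods, the authors trimmed reads with Cutadapt (1.9.1), aligned them to GRCm38 with HISAT2 (2.0.1) and counted reads per gene with HTSeq (0.6.1). The authors deposited the counts per gene and, beside them, FPKM values. Dividing the counts by the exonic gene size and the total count gave the deposited FPKM to within 0.005. The strand setting and the treatment of reads that match more than 1 gene are not given in the sources used here. The authors' deposited splicing table, from rMATS, gives gene, event type, a false discovery rate and a difference in inclusion; the last 2 are the authors' own comparison and were not used.

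WT (n = 2) and Hnrnpf KO (n = 2) libraries were compared with edgeR (4.0.16; filterByExpr, TMM, glmQLFit and glmQLFTest, p-values adjusted by Benjamini-Hochberg over 14123 genes). Fold changes and SEs are from this fit, with 95% intervals from its t quantile. CPM are scaled to the total count. Nothing in the labels says whether the libraries came from separate animals or pools, so p-values measure only the spread between these samples. Within a group the 2 libraries varied beyond counting error (chi-square per degree of freedom 4.30 in WT and 3.86 in Hnrnpf KO). Copies were sought with blastn (2.17.0) at 90% identity or more over at least 200 bases and at least 50% of the copy; exons came from GENCODE M21, which gave all 39 members at the deposited coordinates. The fit was run on counts simulated at a common dispersion. That check required that most genes changed 2-fold and few unchanged genes be called. It set no requirement for smaller changes, such as those of the members. The genes named are all 39 members by role, Hnrnpf, the called genes of the other pathway lists (1 of them is counted but not reported here by name) and copies with counts; full values are given for called members and the 3 highest and lowest by FPKM, and for other members as ranges or short values. The members and lists were chosen with earlier results of these data known. Alternatives were DESeq2 (1.42.0), limma (3.58.1, trended prior) applied to log2 FPKM values with a pseudocount of 0.1 or 1, keeping mean FPKM values from 0.5 upwards, edgeR's exact test, RLE factors, library totals alone, no filter or a mean of at least 10 counts, the replicate block, other thresholds (0.01 and 0.1) and each library left out.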

Additional observations from a re-analysis of the deposited data

How the results depend on the processing

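Hnrnpf fell under every alternative run, and no alternative called a core spliceosome gene lower or at 2-fold. The number of core spliceosome genes called higher was 2 with edgeR, 4 with no filter on low counts (Snrnp70, Luc7l2, Prpf3 and Luc7l), 1 with the replicate block or at an adjusted p of at most 0.01, 0 with limma on FPKM under either pseudocount, and 2 to 3 when single libraries were left out. For the other spliceosome genes, the 5 higher and 2 lower calls became 1 and 1 with DESeq2, and 0 and 0 with limma on FPKM (both pseudocounts), with the replicate block and at an adjusted p of at most 0.01. When single libraries were left out, 0 to 4 were higher and 0 to 1 lower. The cause was not tested. Over all genes, limma called 29 higher and 16 lower of 13570 with a pseudocount of 0.1, and 26 and 15 with a pseudocount of 1. The median log2 fold change of the core spliceosome genes lay between 0.003 and 0.05 under all alternatives.

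The replicate numbers carry no stated pairing. The deviations of same-numbered libraries from their group means had a correlation of -0.0902 across 9875 genes. With 2 libraries per group this value cannot decide whether same-numbered libraries were handled together. Both libraries numbered 2 held more counts (18908963 in WT, 18074619 in Hnrnpf KO) than both numbered 1 (16360435 and 15698567). The replicate block ended the call of Luc7l2 (adjusted p = 0.0814) and changed no other member's call.

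Of the 520 values that the alternatives gave for Hnrnpf and the 39 genes one by one, 476 kept direction and call, 6 were newly called, 7 lost the call and 31 changed sign, all of the last in genes not called and mostly near 0. With library totals alone, log2 fold changes turned negative for Sf3a3 (-0.0022), Prpf38b (-0.005) and Sf3b1 (-0.0077), as they did with limma on log2(FPKM + 0.1) (-0.0016, -0.0049 and -0.0076) and on log2(FPKM + 1) (-0.0015, -0.0048 and -0.0076). Over the 4 fits that leave out a library, the log2 fold change crossed 0 for Cdc5l (-0.0194 to 0.0511), Eftud2 (-0.004 to 0.0442), Prpf31 (-0.0173 to 0.0529), Prpf38a (-0.0354 to 0.022), Prpf38b (-0.0086 to 0.0265), Prpf4 (-0.1139 to 0.1154), Prpf6 (-0.0963 to 0.0182), Sf3a3 (-0.0349 to 0.0555), Sf3b1 (-0.0006 to 0.0132), Snrnp200 (-0.0201 to 0.0098), Snrnp40 (-0.0391 to 0.0314), Snrpb2 (-0.0854 to 0.0679), Snrpd1 (-0.0822 to 0.0524), Snrpd3 (-0.1209 to 0.031), Snrpe (-0.0444 to 0.267) and Snrpg (-0.1441 to 0.1958). With 2 libraries per group, leaving out 1 assumes that the lone library varies like the others.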
